A study of Macaca mulatta with 16 samples.

Results

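The temporal and nasal retina of rhesus macaque fetuses (Macaca mulatta) were compared at 150 days of gestation by RNA sequencing, with 1 library a side. The temporal biopsy punch was taken over the presumptive fovea and the nasal punch at the matching place beyond the optic disc. The labels name no treatment, and the sources used here do not say whether both punches came from the same fetus. The mRNA table also holds 1 library a side at 90 days and the authors' mean of 3 samples a side at 50 days, which serve here only as a background for the 150-day values. All genes that reached 5 CPM (read counts scaled to library size) in either 150-day library were considered, which gave 12067 of the 28633 genes in the table (42.1%). CREB3L2 and FLT3 lay just inside this limit, each with 5.01 CPM on its higher side, and the highest genes outside it had 4.99 CPM.

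The fovea is the avascular pit of the primate retina in which cones are packed tightly and in which each cone is wired to its own bipolar and ganglion cells, so that ganglion cells pile up around it. The retina matures from the center outward: at the fovea progenitors leave the cell cycle and neurons are born before those of the periphery. Temporal and nasal positions are marked early by transcription factors such as HMX1 on the nasal side and by EphA receptors on the temporal side, and the dorsal and ventral sides by TBX5 and VAX2.

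Because each region had 1 library, no difference at this age has a replicate check and none was tested. Throughout, values are given as temporal against nasal CPM, and a fold is followed in parentheses by its exact 95% interval, which covers the counting error of the reads only and compares these libraries, not the regions. A gene was counted as 2-fold higher on a side when log2 of (temporal CPM + 1) over (nasal CPM + 1) reached 1 or -1, and "log2 ratio" stands for this quantity. The gene lists hold known markers of cell types and members of pathways, and the members counted below are those that reached 5 CPM. Since a gene could reach it on its higher side alone, counts and medians over a list are a description. Sums over a list also include its genes under 5 CPM. CPM are not corrected for gene length, so they compare a gene between libraries and not different genes. For 100% of genes the CPM could be turned back into a whole number of reads, and these totalled 17429349 in the temporal and 18663804 in the nasal library. The 10 genes with most reads, among them COX1, ND4, MT-CYB, COXII and COXIII of the mitochondrial genome, NEFL, MAP1B, RP1 and RBP3, held 3.31% and 2.89% of these reads. In punches of whole tissue, fewer cells of a type and less RNA per cell cannot be told apart.

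Most genes differed little between the regions. The log2 ratio had a median of -0.04, its 5th and 95th percentiles were -0.53 and 0.65, and 43.7% of the 12067 genes (5277) were higher in the temporal library. There were 194 genes 2-fold higher in the temporal library (1.61%) and 111 in the nasal library (0.920%), and for 130 and 80 of these the counting interval lay wholly past 2-fold. These shares, and the 43.7% above, are the background for every list count below. Log2 ratios of at least 2 in size, which for low genes take more than a 4-fold difference in CPM because of the added 1, numbered 10 and 13. RNF152, with a log2 ratio of 1.00, was the last gene past the 2-fold limit on the temporal side, and MTUS2, which rounds to the same value, stopped just short of it. The share past 2-fold was larger among low genes, with 72 temporal and 47 nasal of the 3142 genes of 5 to 20 CPM, against 35 and 17 of the 2689 above 100 CPM. Across genes, which are not independent replicates, the log2 levels of the libraries had a Pearson correlation of 0.97.

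**Figure D1:**
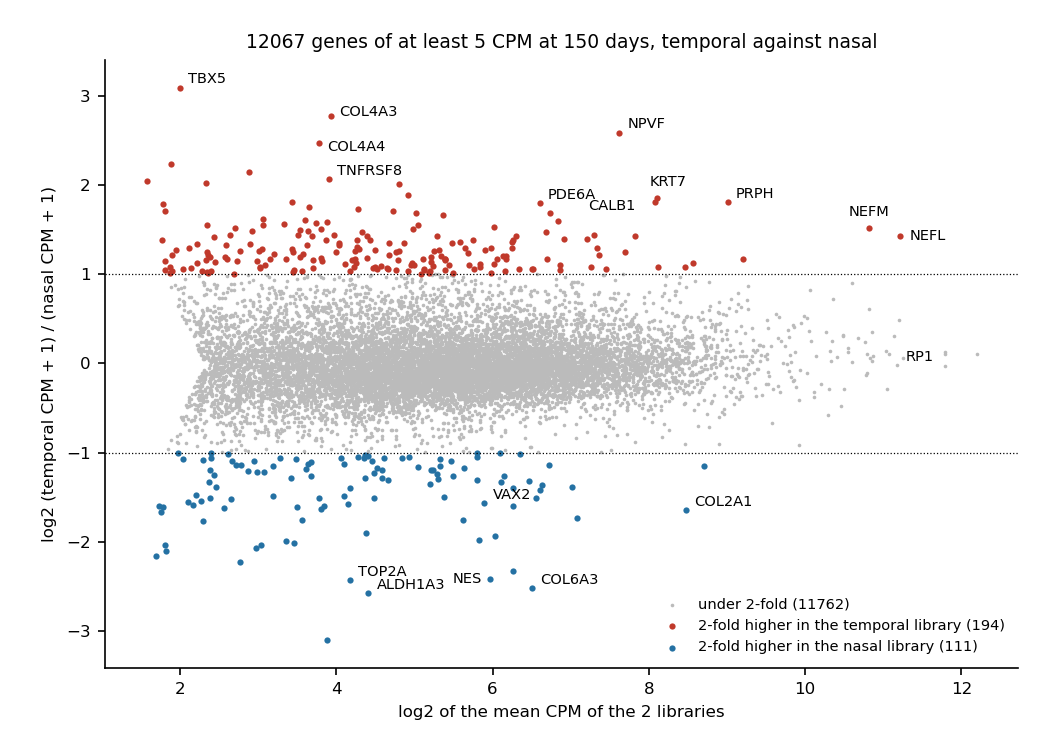
Each dot is a gene of at least 5 CPM, with the log2 of its mean CPM over both libraries on the horizontal axis and its log2 ratio, temporal over nasal, on the vertical axis; dotted lines mark 2-fold. The 194 genes past 2-fold on the temporal side extend to the right end of the plot at NEFM and NEFL, while ALDH1A3 and COL6A3 are among the 111 on the nasal side.

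The position labels were first read against patterning genes. Of the nasal patterning genes, HMX1, a homeobox factor of nasal retina, stood at 41.9 against 112 CPM, higher in the nasal library (2.67-fold, 2.46 to 2.90). The ephrins EFNA5 and EFNA2, ligands of EphA receptors, had 6.15 against 9.88 CPM and 6.48 against 9.13 CPM, whereas EFNA3 was on the temporal side at 25.2 against 19.6 CPM. All 6 measured temporal patterning genes were higher in the temporal library. Among these, the receptor EPHA5 stood at 291 against 122 CPM (2.39-fold, 2.28 to 2.51) and EPHA6 at 6.75 against 2.54 CPM (2.65-fold, 1.90 to 3.75). EPHA4 had 147 against 76.2 CPM, EPHA3 32.0 against 20.6 CPM and EPHA7 55.9 against 50.4 CPM. HMX1 and the EphA receptors thus lay on the side that the labels name.

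Genes of the dorsoventral axis also differed. TBX5, a T-box factor of dorsal retina, had the largest log2 ratio of all genes, 3.09, with 7.95 against 0.0499 CPM, or 146 reads against 1 read (159-fold, 28.2 to 6336). On the opposite side lay VAX2, the homeobox factor of ventral retina, at 29.6 against 89.3 CPM (3.02-fold, 2.74 to 3.33), and ALDH1A3, the retinaldehyde dehydrogenase that makes retinoic acid in ventral retina, at 5.39 against 37.0 CPM (6.87-fold, 5.56 to 8.56). So TBX5 was on the temporal side, and VAX2 and ALDH1A3 were on the nasal side. At 90 days the order was the other way for TBX5, at 16.2 against 58.7 CPM, and for VAX2, at 36.7 against 16.1 CPM, while ALDH1A3 had 9.05 against 7.15 CPM. Of the other genes of dorsal retina, TBX2, TBX3, ALDH1A1 and EFNB1 lay on the nasal side and EFNB2 on the temporal side. TBX2 had 215 against 234 CPM and TBX3 35.4 against 59.8 CPM, and ALDH1A1 and EFNB1 had log2 ratios of -0.69 and -0.48. The receptors EPHB2, EPHB3 and EPHB4 were higher in the nasal library, and EFNB2 and EPHB1 had log2 ratios of 0.69 and 0.72. Of the 12 measured genes of this axis, 9 were higher in the nasal library and 3 in the temporal library. How high above or below the horizontal meridian the punches lay was not stated, and its part in these differences was not tested.

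**Figure D2:**
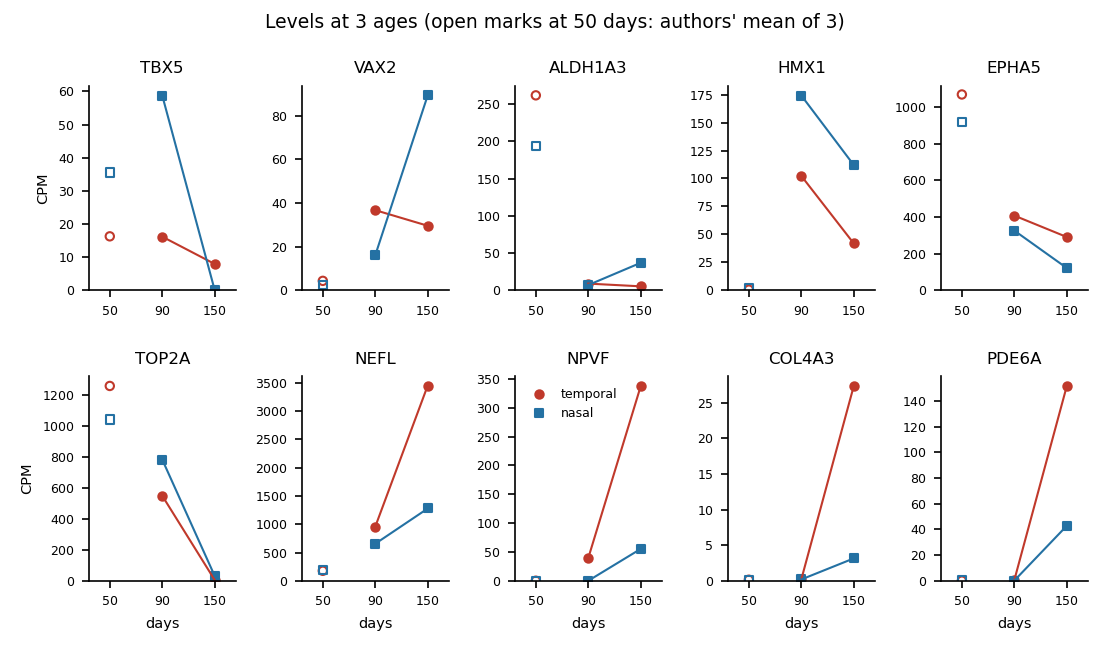
CPM of 10 genes at 50, 90 and 150 days of gestation in the temporal (red circles) and nasal (blue squares) retina, each panel with its own vertical axis from 0; filled marks are 1 library, open marks the authors' mean of 3 samples. TBX5 and VAX2 change sides between 90 and 150 days, HMX1 and EPHA5 stay on the nasal and the temporal side, and NEFL, NPVF, COL4A3 and PDE6A reach their highest values in the temporal library at 150 days.

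Retinal ganglion cell genes made up the group with the largest median difference among the lists of 10 or more genes. Their 25 measured members had a median log2 ratio of 0.99, 12 were 2-fold higher in the temporal library and none in the nasal library, against 1.61% and 0.920% of all genes, and 23 of 25 were higher on the temporal side. Summed with the listed genes under 5 CPM, the list reached 10888 against 4653 CPM. The neurofilament genes carried the most reads of the list. NEFL, the light neurofilament chain of large axons, had 3452 against 1278 CPM (2.70-fold, 2.66 to 2.74), NEFM, the medium chain, 2679 against 936 CPM (2.86-fold, 2.81 to 2.91), and NEFH, the heavy chain, 229.5 against 93.1 CPM (2.47-fold, 2.33 to 2.61). PRPH, which encodes the related filament protein peripherin, stood highest by ratio at 802 against 228 CPM (3.51-fold, 3.40 to 3.63); a separate gene model of the same name lay under 5 CPM with 55 against 16 reads. These 4 filament genes thus pointed the same way with similar ratios. INA, a further neuronal filament gene from the axon list below, had a smaller log2 ratio of 0.72.

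Transcription factors of ganglion cells lay on the same side. POU4F1 (BRN3A), a POU factor of most ganglion cells, had 23.4 against 7.98 CPM (2.93-fold, 2.43 to 3.53), TBR1, a T-box factor of ganglion cell subsets, 22.5 against 6.83 CPM (3.29-fold, 2.71 to 4.02), and IRX2, an Iroquois factor, 56.6 against 22.8 CPM (2.48-fold, 2.22 to 2.78). EOMES (TBR2), which marks the intrinsically photosensitive subset in mice, reached 49.9 against 24.6 CPM with a log2 ratio of 0.99, just under the limit, while OPN4, the melanopsin of those cells, had 7.08 against 6.09 CPM. RBPMS and RBPMS2, RNA-binding proteins of ganglion cells, stood at 143 against 63.4 CPM (2.26-fold, 2.12 to 2.42) and 27.9 against 10.7 CPM (2.61-fold, 2.22 to 3.08). SLC17A6, the vesicular glutamate transporter VGLUT2 that loads their synaptic vesicles, had 332 against 123 CPM (2.70-fold, 2.58 to 2.83). The exceptions were FOXP2 and SATB1, transcription factors of some ganglion cell subtypes, at 3.59 against 7.53 CPM and 66.4 against 83.1 CPM, and ISL2, DCX and NRG1, whose log2 ratios lay between 0.14 and 0.19. At 90 days the median of the list was 0.29 and its sums were 5711 against 4363 CPM. On the authors' means at 50 days the median was -0.24, the other way.

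**Figure D3:**
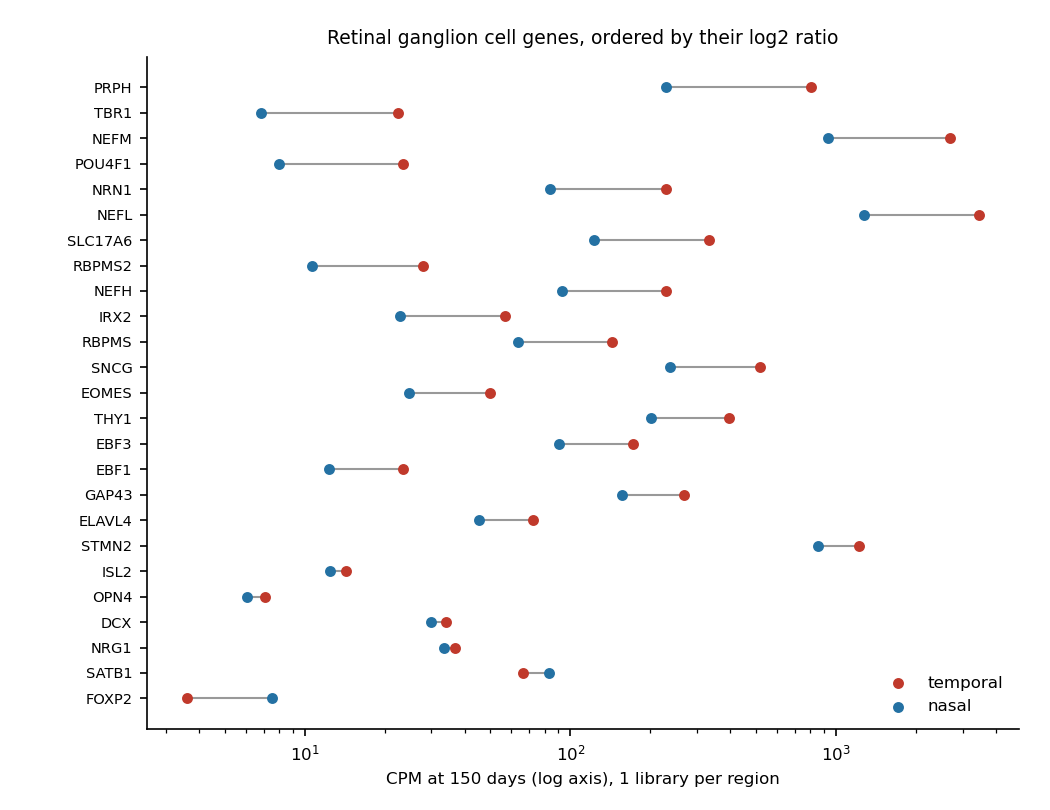
CPM (log axis) of the 25 retinal ganglion cell genes in the temporal (red) and nasal (blue) library at 150 days, ordered from the lowest log2 ratio at the bottom to the highest at the top; each dot is 1 library. In 23 of 25 genes the temporal dot lies to the right, with NEFL and NEFM at the highest CPM and FOXP2 and SATB1 the exceptions.

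The lists of axon, synapse and channel genes lay on the same side. The axon list shares NEFL, NEFM, NEFH, PRPH, GAP43 and STMN2 with the ganglion cell list. Among its 28 members the median was 0.58, 4 were 2-fold higher in the temporal library (NEFL, NEFM, NEFH and PRPH) and 27 of 28 were higher there. Its other members moved less, from STMN1 at 485 against 533 CPM to MAP1A, a microtubule-associated protein, at 459 against 253 CPM, and MAP1B, which had the most reads of them, stood at 2748 against 1965 CPM (1.40-fold, 1.38 to 1.42). Of 31 synaptic vesicle genes, 28 were higher in the temporal library (median 0.36). The 6 past 2-fold were SLC17A6, the calcium sensor SYT2 (63.3 against 19.3 CPM, 3.28-fold, 2.92 to 3.69), the complexins CPLX1 (109 against 43.7 CPM, 2.49-fold, 2.30 to 2.70) and CPLX2 (51.8 against 22.1 CPM), SV2C (27.1 against 10.7 CPM) and VAMP1 (43.4 against 19.3 CPM). Genes of the ribbon synapse, by which photoreceptors and bipolar cells release glutamate, lay on both sides. The 3 genes of the list that were higher in the nasal library were among them. SLC17A7, the transporter VGLUT1, had 420.0 against 439 CPM, SV2B 529.8 against 543 CPM and CTBP2, which also encodes the ribbon protein RIBEYE, 385 against 412 CPM. On the temporal side, CPLX4, a complexin of ribbon synapses that regulates vesicle fusion, had 137 against 95.1 CPM. BSN, ERC2, STX3, CABP4, CACNA1F and CACNA2D4, also of this synapse, had log2 ratios from 0.11 to 0.36. None of these ribbon synapse genes passed 2-fold, against 1.61% and 0.920% of all genes in the temporal and nasal direction. For so few genes, these shares are too small for this count to set the ribbon synapse genes apart.

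Voltage-gated channels and transmitter receptors were also mostly higher in the temporal library. For all genes the share higher there was 43.7% and the share past 2-fold 1.61%. Of 27 potassium channel genes 25 were higher there (median 0.49), and 4, KCNV1, KCNQ3, KCNG4 and KCNC2, passed 2-fold. KCNQ3, a subunit of the M-current, had 29.5 against 12.4 CPM (2.37-fold, 2.04 to 2.77) and KCNC2, a Kv3 channel of fast-spiking cells, 51.3 against 22.8 CPM (2.24-fold, 2.01 to 2.52). Of 27 sodium and calcium channel genes 24 were higher in the temporal library (median 0.30). The axonal sodium channel SCN1A had 88.8 against 40.4 CPM (2.2-fold, 2.02 to 2.39) and its subunit SCN2B 57.0 against 24.1 CPM (2.36-fold, 2.12 to 2.63). SCN2A and SCN8A lay just under the limit, at 169 against 89.7 CPM and 89.5 against 45.5 CPM. Among 36 transmitter receptors, 30 were higher in the temporal library (median 0.38), and the NMDA receptor subunit GRIN2B was past 2-fold (11.3 against 4.54 CPM, 2.48-fold, 1.93 to 3.21). GRM6, the glutamate receptor of ON bipolar cells, had 95.5 against 98.1 CPM.

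Photoreceptor genes lay on both sides. The 17 cone genes had a median log2 ratio of 0.55, with 15 higher in the temporal library and 2 past 2-fold (43.7% and 1.61% of all genes), and the 16 rod genes a median of 0.31, with 11 higher there and 2 past 2-fold. The 22 genes of both photoreceptor types had a median of 0.06, with 2 past 2-fold toward temporal and 1 toward nasal. Cone opsins were higher in the temporal library. OPN1SW, the short-wavelength opsin of S cones, had 100.01 against 43.9 CPM (2.28-fold, 2.10 to 2.47). The model annotated as the long-wavelength opsin OPN1LW, whose reads cannot be separated with certainty from those of its near-identical neighbour OPN1MW, had 408 against 238 CPM (1.71-fold, 1.65 to 1.77). Both cone opsin genes thus lay on the temporal side, OPN1SW with the larger ratio.

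Of the phototransduction genes, PDE6A, the alpha subunit of the rod phosphodiesterase, stood at 152 against 42.8 CPM (3.54-fold, 3.28 to 3.83), while PDE6B, its beta subunit, stood at 273 against 261 CPM (1.05-fold, 1.01 to 1.09). The sodium-calcium exchangers of the outer segment, SLC24A1 of rods and SLC24A2 of cones, had 47.1 against 16 CPM (2.94-fold, 2.59 to 3.36) and 49.7 against 16.3 CPM (3.05-fold, 2.68 to 3.47). Guanylate cyclase GUCY2F reached 5.88 against 1.10 CPM (5.36-fold, 3.36 to 8.90), whereas the cyclase GUCY2D had 77.7 against 83.2 CPM. IMPG1, a proteoglycan of the matrix around the outer segments, had 479 against 226 CPM (2.12-fold, 2.05 to 2.2) and RDH12, a retinol dehydrogenase of photoreceptors, 228 against 114 CPM with a log2 ratio of 0.99. Cone phosphodiesterase PDE6C (132 against 76.8 CPM), cone transducin GNAT2 (105 against 71.3 CPM), cone arrestin ARR3 (586 against 399 CPM) and the cone opsin kinase GRK7 (52.9 against 28.8 CPM) were also higher in the temporal library, short of 2-fold. GNB3, the cone transducin beta subunit, was the exception at 961 against 1247 CPM, higher in the nasal library (1.30-fold, 1.27 to 1.32). Genes shared by rods and cones that carried many reads differed less: RP1 had 2302 against 2331 CPM, RBP3 2484 against 2009 CPM and AIPL1 911 against 899 CPM.

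Several transcription factors of these lists, described together after their values were seen, had their higher value in the nasal library. PRDM1 (BLIMP1), which steers precursors to photoreceptors, had 52.5 against 142 CPM (2.71-fold, 2.52 to 2.92), OTX2, the homeobox factor upstream of photoreceptor and bipolar fate, 207 against 367 CPM (1.77-fold, 1.71 to 1.84), and CRX, their later homeobox factor, 692 against 844 CPM (1.22-fold, 1.19 to 1.25). Both rod factors, NRL and NR2E3, were nasal as well, at 1009 against 1504 CPM (1.49-fold, 1.46 to 1.52) and 224 against 360.2 CPM (1.61-fold, 1.54 to 1.67). This did not hold for all factors: the receptors RXRG and THRB of cones and ESRRB of rods had 251 against 258 CPM, 69.9 against 58.6 CPM and 48.5 against 33.9 CPM. Recoverin (RCVRN), a calcium sensor of both types, had 1172 against 1634 CPM, the phosducin gene PDC 472 against 584 CPM and ROM1, a structural protein of the outer segment, 505 against 649.8 CPM, so that genes other than transcription factors were also found on the nasal side. Outside these lists, NXNL1, which encodes the rod-derived cone viability factor, stood at 11.6 against 3.49 CPM (3.32-fold, 2.52 to 4.41), and CLUL1, a clusterin-like gene of the retina, at 151 against 53.8 CPM (2.81-fold, 2.61 to 3.01). At 90 days CLUL1 was at 0.101 against 0.0941 CPM and PDE6A at 0.607 against 0.188 CPM, so that both were under 1 CPM on either side at that age.

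**Figure D4:**
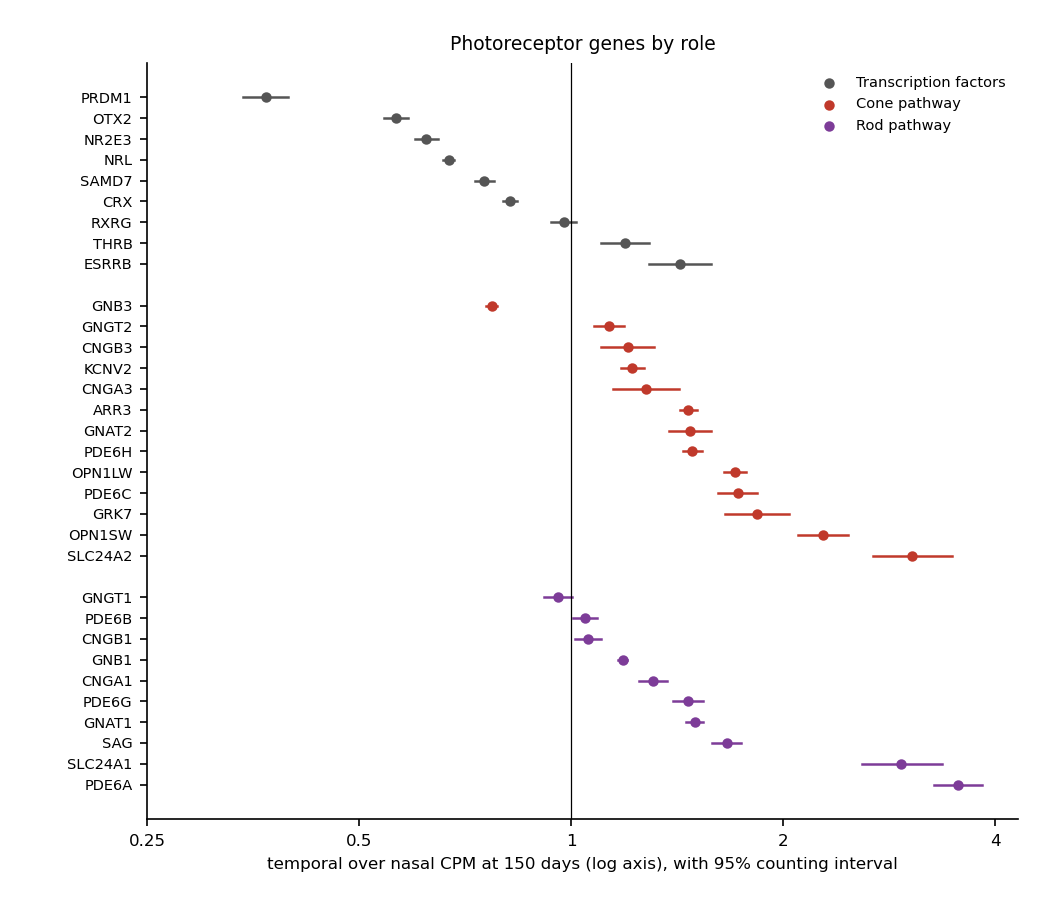
Temporal over nasal CPM (log axis) at 150 days for photoreceptor transcription factors (grey), cone pathway genes (red) and rod pathway genes (purple), with exact 95% counting intervals as bars; the line marks equal values. PRDM1, OTX2, NR2E3, NRL, SAMD7 and CRX lie to the left and THRB and ESRRB to the right, while cone pathway genes other than GNB3 and rod pathway genes other than GNGT1 lie to the right, with PDE6A the farthest.

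Bipolar cell genes showed no common direction, while more amacrine cell genes were higher in the temporal library than in the nasal library. The 23 bipolar genes had a median log2 ratio of 0.00, and LHX3, a LIM homeodomain factor of bipolar cells, passed 2-fold on the nasal side, at 50.3 against 127 CPM (2.53-fold, 2.34 to 2.73). PCP2, a regulator of G-protein signaling in ON bipolar cells, followed at 34.4 against 69.5 CPM, whereas GRIK1, a kainate receptor of OFF bipolar cells, had 229 against 153 CPM and TRPM1, the channel of ON bipolar cells, 121 against 117 CPM. At 90 days the same list had a median of 0.72. None of the 19 amacrine genes passed 2-fold, against 1.61% and 0.920% of all genes, shares too small for this count to set them apart. Of the 19 amacrine genes 13 were higher in the temporal library (68.4%), against 43.7% of all genes. Summed with the listed genes under 5 CPM, the amacrine list had 1679 against 1694 CPM. The amacrine median was 0.07, and the genes ranged from the glycine transporter SLC6A9, 109 against 167 CPM, to CALB2 (calretinin), 86.7 against 49.4 CPM. Among 8 horizontal cell genes (median 0.16) 1 passed 2-fold, CALB1, which encodes the calcium buffer calbindin and is also found in cones and other neurons, at 420.0 against 119 CPM (3.53-fold, 3.37 to 3.70), and ONECUT1, a factor of horizontal cells, had 54.7 against 34.5 CPM.

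Glial genes were mixed. The 21 Müller glia genes had a median of 0.20, with 12 higher in the temporal library. FRZB, a secreted Wnt antagonist, was the member past 2-fold, at 816 against 362 CPM (2.26-fold, 2.2 to 2.32). APOE, the lipid carrier, had 416 against 237 CPM (1.75-fold, 1.69 to 1.82) and GLUL, the glutamine synthetase of Müller glia, 666 against 497 CPM, while TF (transferrin), with the most reads of the list, had 1913 against 2329 CPM and the glial factors SOX9, NFIA, NFIB and NFIX had log2 ratios from -0.41 to -0.29. The 4 transcription factors thus lay on the nasal side, while other genes of these cells lay on either side. Astrocyte genes, of which 5 were measured, held S100B on the temporal side at 18.8 against 6.09 CPM (3.10-fold, 2.51 to 3.84) and the gap junction gene GJA1 on the nasal side at 6.86 against 15.5 CPM (2.26-fold, 1.83 to 2.80). GFAP and PAX2, which mark astrocytes, had 19.4 against 15.3 CPM and 6.59 against 5.99 CPM.

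**Figure D5:**
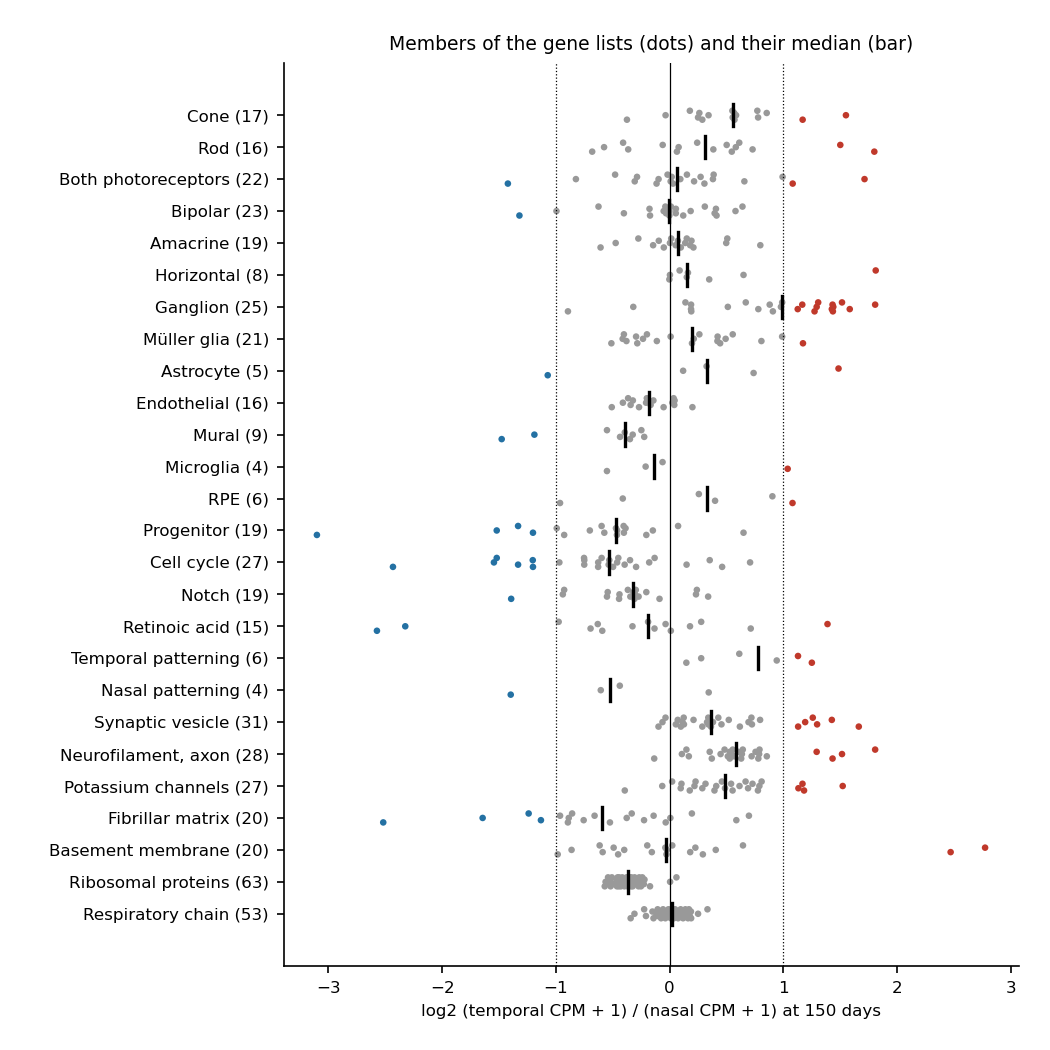
Log2 ratio, temporal over nasal, at 150 days of every measured member (dots, red past 2-fold temporal and blue past 2-fold nasal) of 26 gene lists, with the number of members in parentheses and the median as a black bar. Ganglion cell, axon and channel genes lie mostly to the right of 0, whereas progenitor, cell cycle, fibrillar matrix and ribosomal protein genes lie mostly to the left.

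Progenitor and cell cycle genes were higher in the nasal library. Of 19 progenitor genes, 17 were higher there (median -0.47) and 4 passed 2-fold, and of 27 cell cycle genes, which share CCND1, E2F1, CDK1 and CCNB1 with that list, 23 were higher there (median -0.54) and 6 passed 2-fold. Over all genes 6790 of 12067 were higher in the nasal library and 0.920% passed 2-fold there. None of either list was 2-fold higher in the temporal library, against 1.61% of all genes, a share too small for this absence to set the lists apart. TOP2A, the topoisomerase of dividing cells, stood at 4.95 against 31.1 CPM (6.28-fold, 5.04 to 7.92), CCND1, the cyclin D1 of retinal progenitors, at 38.7 against 98.8 CPM (2.56-fold, 2.35 to 2.79), and E2F1 at 2.78 against 9.83 CPM (3.54-fold, 2.59 to 4.92). RAX, a homeobox factor of the eye field that photoreceptors also express, had 111 against 222 CPM and SOX2 67.7 against 94.3 CPM. The cell cycle inhibitor CDKN1A ran the other way, at 131 against 80.1 CPM, as did ONECUT1.

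Outside the lists, some of the genes with the largest nasal ratios are known from dividing cells and progenitors. Nestin (NES), an intermediate filament of neural progenitors, had 19.1 against 106 CPM (5.56-fold, 4.97 to 6.25), FOXN4, a forkhead factor of progenitors that give rise to amacrine and horizontal cells, 0.544 against 5.89 CPM (10.8-fold, 5.68 to 23.1), and UHRF1, which maintains DNA methylation in dividing cells, 0.708 against 6.34 CPM (8.95-fold, 5.05 to 17.3). ASPM, a spindle protein, had 1.09 against 5.64 CPM (5.18-fold, 3.20 to 8.80) and MYB, a factor of proliferating cells, 8.17 against 33.3 CPM (4.07-fold, 3.41 to 4.90). FOXM1, MYBL2, NUSAP1 and KIF15, all linked to mitosis, had log2 ratios between -1.61 and -1.55. These were low at this age: MYBL2 and FOXM1 stood at 85.8 against 117 CPM and 63.7 against 103 CPM at 90 days and at 1.2 against 5.69 CPM and 1.14 against 5.49 CPM at 150 days.

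The 2-fold genes also sorted by age. Of the 111 genes 2-fold higher in the nasal library, 80 (72.1%) had a higher mean over both regions at 90 than at 150 days, against 49.4% of all 12067 genes and 24.2% of the 194 genes on the temporal side (47). More than 2-fold higher at 90 days were 56.8% of the nasal genes (63), 2.06% of the temporal genes (4) and 5.54% of all genes. Conversely, 43.3% of the temporal genes (84) were more than 2-fold higher at 150 days, against 12.6% of the nasal genes (14) and 9.70% of all genes. These shares are not independent of the choice of genes: the 150-day values enter both the 2-fold sets and the comparison of ages, and the limit of 5 CPM was set at 150 days only. At 90 days 140 of the 194 temporal genes, 103 of the 111 nasal genes and 11418 of all 12067 reached 5 CPM in either library. The 90-day libraries had been prepared in the same way. In them the temporal library was the higher for 156 of the 194 temporal genes (80.4%), for 26 of the 111 nasal genes (23.4%) and for 56.8% of all genes. These shares describe counts of genes and carry no test, since each region had 1 library at 90 and at 150 days and the ages share no sample. At 50 days, on the authors' means, the median log2 ratio was -0.11 for the temporal genes and -0.03 for the nasal genes. Over all genes it was -0.02 at that age, so the temporal genes did not have their later direction at 50 days.

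Signaling genes were considered next. The 19 genes of the Notch pathway, which keeps progenitors undifferentiated and guides vessel sprouting, had a median log2 ratio of -0.32. Of these, 16 were higher in the nasal library, against 6790 of the 12067 genes measured. DLL4, a ligand of endothelial cells and progenitors, passed 2-fold at 9.53 against 26.6 CPM (2.80-fold, 2.35 to 3.34), and the receptor NOTCH1 had 61.5 against 119 CPM, while the ligands JAG1 and JAG2 had 28.7 against 24.1 CPM and 38.4 against 32.6 CPM. Retinoic acid genes, 15 in number, differed in both directions (median -0.19). CYP26A1, the enzyme that degrades retinoic acid, stood at 31.5 against 11.4 CPM (2.76-fold, 2.36 to 3.23). Besides ALDH1A3, RDH10, which oxidizes retinol on the way to retinoic acid, was nasal at 123 against 244 CPM. ALDH1A3 and RDH10 thus lay on the nasal side and CYP26A1 on the temporal side, as did DHRS9, a retinol dehydrogenase, at 8.98 against 5.09 CPM.

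Of the 16 FGF genes (median 0.15), FGF12 was temporal at 59.8 against 27.2 CPM (2.19-fold, 1.98 to 2.44), and FGF9 had 18.6 against 11.5 CPM. The 24 Wnt genes had a median of -0.25: besides FRZB, WNT10A passed 2-fold on the nasal side at 5.83 against 15.6 CPM (2.68-fold, 2.15 to 3.37), and the antagonist WIF1 had 592 against 939.6 CPM (1.59-fold, 1.55 to 1.62). BMP and TGF-beta genes, 25 in number, had a median of -0.10, and INHBB, the activin beta B subunit, was nasal at 24.5 against 55.5 CPM (2.27-fold, 2.03 to 2.53). Among 8 hedgehog genes (median -0.43) the co-receptor CDON had 27.9 against 60.9 CPM (2.19-fold, 1.97 to 2.43), and the transducer SMO 29.4 against 49.5 CPM. In the axon guidance list of 43 genes (median 0.14), 5 were 2-fold higher in the temporal library, against 1.61% of all genes. They were the secreted semaphorins SEMA3C (39.9 against 16.1 CPM, 2.48-fold, 2.17 to 2.84), SEMA3D (71.9 against 28.7 CPM, 2.51-fold, 2.27 to 2.77) and SEMA3E (18.8 against 5.49 CPM, 3.43-fold, 2.76 to 4.29), their co-receptor NRP2 (24.0 against 8.93 CPM, 2.68-fold, 2.25 to 3.21) and the netrin NTN4 (172 against 56.1 CPM, 3.06-fold, 2.86 to 3.28). PLXNC1, a plexin receptor, was nasal at 21.2 against 61.8 CPM (2.91-fold, 2.59 to 3.27), and SEMA3A and SEMA3F, of the same semaphorin class, had 48.7 against 44.5 CPM and 183 against 234 CPM.

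Of 20 fibrillar and interstitial matrix genes, 16 were higher in the nasal library (median -0.59) and 4 passed 2-fold there, against 0.920% of all genes. COL6A3, a chain of beaded-filament collagen VI, had 26.2 against 155 CPM (5.91-fold, 5.36 to 6.51), COL2A1, the collagen of the vitreous and cartilage, 172 against 539 CPM (3.14-fold, 3.01 to 3.26), the proteoglycan VCAN 22.8 against 55.1 CPM (2.42-fold, 2.16 to 2.72) and fibulin FBLN1 10.3 against 23.8 CPM (2.31-fold, 1.94 to 2.74). FAP, a surface protease of fibroblasts, and LOXL1, which crosslinks elastin, were nasal as well, at 21.9 against 76.1 CPM (3.48-fold, 3.11 to 3.89) and 37.7 against 116 CPM (3.09-fold, 2.83 to 3.36). Of 20 basement membrane genes 12 were higher in the nasal library (median -0.03), near the share of all genes (6790 of 12067). Among these 12 were COL18A1, with 2 gene models at log2 ratios of -0.98 and -0.86, the perlecan gene HSPG2 at 36.2 against 56.0 CPM and COL15A1 at 4.41 against 7.13 CPM. COL4A3 and COL4A4, which encode the alpha3 and alpha4 chains of a collagen IV network, were temporal at 27.3 against 3.14 CPM (8.70-fold, 6.68 to 11.5) and 23.9 against 3.49 CPM (6.84-fold, 5.31 to 8.94). The common chains COL4A1 and COL4A2 ran the other way, at 94.2 against 129 CPM and 174 against 246 CPM, and COL4A5, the partner chain of COL4A3 and COL4A4, had 2 gene models with log2 ratios of 0.18 and 0.23.

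Since 1.61% and 0.920% of all genes passed 2-fold, a short list with none past it is not set apart by that count. None of the 16 endothelial genes passed 2-fold (median -0.18), with CDH5, the junctional cadherin of vessels, at 24.5 against 35.3 CPM, PECAM1 at 34.4 against 41.7 CPM, CLDN5 at 88.1 against 85.4 CPM and KDR, a VEGF receptor, at 563 against 489 CPM. At 90 days the same list had a median of -1.36. All 9 mural cell genes, of pericytes and smooth muscle, were higher in the nasal library (median -0.39), and the muscle genes DES (1.96 against 7.23 CPM) and ACTA2 (7.08 against 17.4 CPM, 2.46-fold, 2.01 to 3.03) passed 2-fold. None of 20 angiogenesis genes passed 2-fold (median -0.10), and VEGFA, the growth factor that drives vessels into the retina, had 199 against 178 CPM.

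Genes of neighbouring tissues and other cells were checked next. Of 15 listed genes of the retinal pigment epithelium, 6 were measured, and the sums over all listed genes were 111 against 94.1 CPM. RPE65, its visual cycle isomerase, had 4 against 1 reads, TYR, an enzyme of pigment synthesis, was at 0 in both, and TTR, the retinol carrier transthyretin, was temporal at 5.34 against 2.00 CPM (2.67-fold, 1.83 to 3.97). Of the red cell genes, HBG2, a fetal globin whose reads its paralog can share, had 19.98 against 46.1 CPM (2.31-fold, 2.04 to 2.61), and the erythroid enzyme ALAS2 had 32 against 60 reads. Microglia and macrophage genes gave 4 members: CSF1R and P2RY12 had 10.6 against 11.1 CPM and 6.81 against 8.03 CPM, CD74 4.25 against 6.69 CPM, and LYZ, the lysozyme gene, 49.8 against 23.7 CPM (2.10-fold, 1.88 to 2.35). Of 5 measured genes of the ciliary margin and lens, 4 were higher in the nasal library, against 6790 of all 12067 genes. ZIC1 and ZIC2, zinc finger factors that also mark retinal progenitors, passed 2-fold on that side. ZIC1 had 8.44 against 27.2 CPM (3.22-fold, 2.69 to 3.88) and ZIC2 22.4 against 91.4 CPM (4.09-fold, 3.67 to 4.56). The lens crystallin CRYAA, which neurons can also express, had 193 against 245 CPM, and WFDC1 ran the other way at 59.2 against 46.1 CPM. Under 5 CPM, CRYBB2 had 62 against 86 reads and the lens channel MIP 0 against 1 reads. CNP, a gene of myelinating cells, was at 119 against 134 CPM. Beside the differences above, the summed levels were higher in the nasal library for mural genes (158 against 219 CPM), progenitor genes (828 against 1213 CPM), ciliary margin and lens genes (293 against 423 CPM), red cell genes (24.3 against 52.7 CPM) and fibrillar matrix genes (1020.0 against 1721 CPM), and the part of cell makeup in any result was not tested.

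Among other groups, calcium-binding genes had a median of 0.42 over 25 members, 4 of them 2-fold higher in the temporal library, against 1.61% of all genes. Besides CALB1 and S100B these were PVALB (parvalbumin), at 109 against 42.1 CPM (2.60-fold, 2.39 to 2.82), and S100A1, at 72.4 against 30.1 CPM (2.4-fold, 2.18 to 2.65). In the neuropeptide list of 12 genes (median 0.19), NPVF, the precursor of RFamide-related peptides, had 338 against 55.4 CPM (6.10-fold, 5.72 to 6.51), whereas CHGA and CHGB, granins of secretory vesicles, had 205 against 165 CPM and 505 against 379.9 CPM. The 25 genes of cholesterol synthesis and uptake had a median of 0.37, with 17 higher in the temporal library. HMGCS1, an early enzyme of the pathway, had 416 against 258 CPM (1.61-fold, 1.56 to 1.67) and SQLE, the squalene epoxidase, 130.2 against 89.7 CPM (1.45-fold, 1.37 to 1.54). SREBF1, a regulator of fatty acid synthesis, was the member past 2-fold, on the nasal side at 53.7 against 110.1 CPM (2.05-fold, 1.90 to 2.21), and SREBF2, the regulator of the cholesterol genes, had 314 against 224 CPM.

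Ribosomal protein genes shifted together by a small amount. Of 63 such gene models 61 were lower in the temporal library, none passed 2-fold and the median log2 ratio was -0.37. Over all genes 6790 of 12067 were lower in the temporal library. All listed ribosomal protein genes, those under 5 CPM included, summed to 10932 against 14147 CPM, with RPS14 at 234 against 336 CPM and RPL13 at 461 against 633 CPM. At 90 days their median was 0.18 and their sums were 17296 against 15282 CPM, so the direction was the other way. Many have processed copies elsewhere in the genome, with which reads can be shared. Respiratory chain genes shifted little. The 53 members encoded in the nucleus had a median of 0.02, and 34 of them were higher in the temporal library. Over all genes the median was -0.04 and 43.7% were higher there. The mitochondrial COX1 and ND4 had 4879 against 4523 CPM and 3713 against 3393 CPM.

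Over all genes, 1.61% passed 2-fold toward temporal and 0.920% toward nasal, so a short list with none past it is not set apart. None of 11 immediate early genes passed 2-fold (median -0.27), with JUN at 52.4 against 90.1 CPM and EGR1 at 13.9 against 18.2 CPM. None of 15 heat shock and stress genes did either (median 0.04), with HSPA8 at 1561 against 1429 CPM and DDIT4, induced by hypoxia and other stress, at 126 against 221 CPM. The 14 complement and MHC genes had a median of -0.06 and no member past 2-fold, and 18 housekeeping models had a median of 0.11, with GAPDH at 2071 against 1629 CPM and TBP at 29.3 against 32.9 CPM. Of 76 measured genes that the study itself drew in its figures from these samples, which are no independent evidence of a direction, 15 were 2-fold higher in the temporal and 6 in the nasal library (median 0.17), against 1.61% and 0.920% of all genes. Besides those above, they included KLF9, a zinc finger factor induced by thyroid hormone, at 25.9 against 11 CPM (2.35-fold, 2.00 to 2.76), PAPLN, a matrix proteoglycan, at 11.1 against 3.79 CPM (2.93-fold, 2.24 to 3.86) and LGI2, a secreted neuronal protein, at 163 against 50.0 CPM (3.26-fold, 3.03 to 3.5).

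Several of the largest ratios fell outside the cell type and pathway lists. On the temporal side, KRT7, a keratin of simple epithelia, stood at 433 against 119 CPM (3.62-fold, 3.46 to 3.79), and TNFRSF8 (CD30), a receptor of the TNF family, had 24.7 against 5.14 CPM (4.81-fold, 3.88 to 6.02). SLC6A4, the serotonin transporter, had 19.9 against 5.19 CPM (3.84-fold, 3.08 to 4.82) and HRH3, a histamine receptor of neurons, 17.4 against 4.24 CPM (4.11-fold, 3.23 to 5.28). PRSS12, the synaptic protease neurotrypsin, had 45.4 against 10.5 CPM (4.31-fold, 3.70 to 5.04), PLA2R1, a phospholipase receptor, 41.1 against 11.9 CPM (3.46-fold, 2.98 to 4.02), HKDC1, a hexokinase family member, 30.2 against 8.38 CPM (3.61-fold, 3.03 to 4.31) and MICAL2, which oxidizes actin, 49.9 against 14.9 CPM (3.36-fold, 2.94 to 3.84). AHRR, the repressor of the aryl hydrocarbon receptor, and PLEKHF1 were near the 5 CPM limit, at 5.39 against 0.549 CPM and 5.88 against 0.998 CPM.

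On the nasal side, CPAMD8, a gene of the complement C3 and alpha-2-macroglobulin family, had 2.4 against 13.3 CPM (5.54-fold, 4.01 to 7.81), FOXI2, a forkhead factor, 0.762 against 6.24 CPM (8.18-fold, 4.70 to 15.4), TMEM26 3.76 against 18.2 CPM (4.85-fold, 3.74 to 6.36) and SLC45A3 3.54 against 17.0 CPM (4.81-fold, 3.68 to 6.37). RRAD, a small GTPase that restrains calcium channels, stood at 26.4 against 104 CPM (3.94-fold, 3.57 to 4.36) and the neural gene C8ORF46 at 62.3 against 209 CPM (3.35-fold, 3.14 to 3.58). GADD45G, a growth arrest gene, had 48.1 against 139 CPM (2.89-fold, 2.68 to 3.13).

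Some 2-fold genes were neighbours on a chromosome. Neighbourhood was read from the order of a RefSeq annotation of the T2T-MMU8v2.0 assembly. It was used for this only, because the values were made on an older build. Of the 305 2-fold genes 283 were found there, among 10394 matched genes in all. In this order 8 adjacent pairs lay past 2-fold on the same side. They are not all separate places, since VAX2 pairs with a neighbour on either side. How many pairs to expect was not worked out, so the count has no background. On the temporal side the pairs were COL4A4 with COL4A3, NEFM with NEFL, HTR1B with IMPG1, and GPR149 with MME, a surface peptidase. The nasal pairs included ZIC5 with ZIC2, ATP6V1B1 with VAX2, and VAX2 with CD207. CD207, the langerin gene, followed VAX2 at both ages, with 2.61 against 13.8 CPM at 150 days (5.27-fold, 3.87 to 7.32) and 10.8 against 0.611 CPM at 90 days, while ATP6V1B1 had 4.30 against 13.9 CPM (3.22-fold, 2.5 to 4.19) and 26.4 against 31.7 CPM. HTR1B, a serotonin receptor, had 28.4 against 10.2 CPM. Whether reads of such neighbours overlap was not tested.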

How the data were processed

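The members and all gene lists were chosen with earlier results of these data known. Total RNA was depleted of ribosomal RNA (Ribo-Zero Gold) and sequenced as paired ends at 90 and 150 days, and as single ends of 50 bp at 50 days. The authors aligned reads with Tophat 2.0.11 and Bowtie2 2.2.2 to Mmul_1 with Ensembl 75 genes, and used Cufflinks 2.2.1; the submitters' processing notes name edgeR, and no source used here names the read counter. The deposited values are CPM scaled to an effective library size (18367550 temporal, 20044586 nasal at 150 days), with no correction for gene length. At 50 days the deposited signal is the authors' mean of 3 samples on the CPM scale. The miRNA table was not used here.

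Reads were recovered from the CPM steps (whole within 0.01 reads). Log2 ratios used a pseudocount of 1 CPM, which understates the change of low genes. Intervals of ratios were exact binomial (Clopper-Pearson, 95%; scipy 1.17.1), without correction for PCR copies, after a test on simulated reads. With 1 library a side there was no test of the 150-day differences, and an SD could not be given. Gene symbols were the file's for 11090 members, and a gene name table gave 395 more, while 582 had none and 70 symbols belonged to several gene models. Genes were named if they were among the 20 with the largest ratio in a direction and had a symbol, the members of a list past 2-fold, its 3 members with most reads or its most extreme ones, among those the study drew, among the 10 with most reads, or adjacent 2-fold genes; NXNL1, CLUL1, LOXL1, the 4 mitotic genes, GADD45G and other members given for contrast were chosen after their values were seen. Some genes that the rule names are not reported here. Alternatives changed the pseudocount, filter, scaling and centring, and edgeR 4.0.16 (quasi-likelihood, Benjamini-Hochberg) was run on the reads of 90 and 150 days with age and region as terms.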

Additional observations from a re-analysis of the deposited data

Results flagged for a closer look

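Among genes of at least 5 CPM on either side at each age, 5 were 2-fold different in opposite directions at 90 and at 150 days, and these differences between the ages were not tested, since each age and region had 1 library. TBX5, the T-box factor of dorsal retina, had a log2 ratio of 3.09 at 150 days and -1.80 at 90 days. VAX2, the homeobox factor of ventral retina, had -1.56 at 150 days and 1.14 at 90 days, and its neighbour CD207 -2.03 and 2.87. RRAD, a small GTPase, had -1.94 at 150 days and 1.24 at 90 days, with 26.4 against 104 CPM and 70.0 against 29.0 CPM in this order. CP (ceruloplasmin), a copper-binding ferroxidase, was the reverse, with 1.10 at 150 days (159 against 73.6 CPM) and -2.11 at 90 days (1.52 against 9.83 CPM).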

How the results depend on the processing

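No paired analysis was possible because each region had 1 library at 150 days. The 194 temporal and 111 nasal genes past 2-fold became 106 and 56 with a pseudocount of 5 CPM and 122 and 64 among genes of at least 20 CPM, since these settings take out low genes or shrink their ratios. In the edgeR run on the recovered reads of 90 and 150 days, the ages stand in as replicates. It tests a region difference shared by both ages, so it is no test of the 150-day differences or of genes that change sides. With edgeR 0 and 0 of 14380 genes passed an adjusted p of 0.05. The lowest adjusted p was 0.0832, and 1317 genes were under 0.05 before adjustment. The other settings kept both counts within 1.5 times: 214 and 124 with a pseudocount of 0.5 CPM, 220 and 156 without a filter, 191 and 130 when scaled by the total of recovered reads, 229 and 103 when centred on the median, and 130 and 80 when the whole counting interval had to lie past 2-fold. The temporal share of the 2-fold genes was 63.6%, and 58.5% without a filter, 59.5% under total scaling and 69.0% when centred. Scaling moved the median log2 ratio by -0.03 and centring by 0.04. The bipolar, basement membrane, heat shock and respiratory chain lists have medians within 0.05 of 0, so they are given no direction against 0 here. The median of all genes was itself -0.04. Of the 44 lists, 24 lay above the median of all genes under every change of pseudocount, filter removal, scaling or centring, and 28 among genes of at least 20 CPM.

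With 1 library a side, the spread between fetuses, punches and library preparations is unknown. Genes near 5 CPM rest on about 100 reads on their higher side.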
